A study of Homo sapiens with 2 samples.

Results

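The 10 genes described here encode the sliding clamp PCNA, the 5 subunits of its loader (RFC1 to RFC5), the flap endonuclease FEN1, DNA ligase LIG1, and RPA1 and RPA3 of the single-strand binding complex. They were chosen by function, with earlier results of these data known. Every non-control probe whose RefSeq transcript belongs to a member was taken. The members are 10 of the 23752 genes and unnamed transcripts with a signal well above background on either array. Expression was profiled on 1-colour Agilent arrays in HepG2 cells, an established human hepatoma line often used as a model of the hepatocyte. One culture received DMSO, the solvent, at 1‰, and the other received hawk tea extract (HTE), an extract of the leaves of a herbal tea dissolved in DMSO, and both were treated for 24 h. The labels give 200 μg/mL HTE, whereas the study's text gives a higher dose and states that viability was lowered at it; the dose of the array sample is therefore not settled here. Each group is 1 array of 1 culture of 1 cell line, so array, culture and treatment cannot be told apart, no test between the groups was possible, and a call below is a call of size, at least 2-fold, the cutoff of the study's methods.

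At a replication fork the lagging strand is made in short pieces, each of which must be started, extended and joined to the next. Replication factor C opens the ring-shaped clamp PCNA with ATP and closes it around primed DNA, where PCNA tethers the polymerase and serves as a landing platform for other proteins. RPA coats the exposed single strand, FEN1 cuts the 5′ flap that is displaced when the polymerase reaches the previous piece, and LIG1 seals the remaining nick while held by PCNA. In bulk RNA, fewer cells in a replicating state and less RNA per cell cannot be told apart.

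Promoters of many replication genes carry sites for E2F factors. The promoter sequences are shown for the 3 members with an exact match to an E2F motif searched here. The windows run from 250 bases before to 50 bases after the start in the RefSeq promoter table (GRCh38.p14), and each is written 5′ to 3′ on the strand of its gene. The RFC3 window is chr13:33817899-33818198 (plus strand), the PCNA window, the upstream one of its 2 entries, is chr20:5126573-5126872 (minus strand), and the LIG1 window is chr19:48170295-48170594 (minus strand). Capitals mark the E2F match.
RFC3: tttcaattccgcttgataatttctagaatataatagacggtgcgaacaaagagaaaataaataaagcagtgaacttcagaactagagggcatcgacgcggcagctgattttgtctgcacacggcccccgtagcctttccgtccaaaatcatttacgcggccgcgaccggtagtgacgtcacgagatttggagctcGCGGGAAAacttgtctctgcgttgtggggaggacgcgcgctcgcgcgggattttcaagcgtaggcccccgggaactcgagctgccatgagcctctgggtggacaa
PCNA: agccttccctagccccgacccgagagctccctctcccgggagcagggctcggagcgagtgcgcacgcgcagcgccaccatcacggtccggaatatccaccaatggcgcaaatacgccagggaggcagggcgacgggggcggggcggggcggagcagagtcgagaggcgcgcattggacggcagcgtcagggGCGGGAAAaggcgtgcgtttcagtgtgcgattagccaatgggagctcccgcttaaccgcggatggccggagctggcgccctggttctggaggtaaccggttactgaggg
LIG1: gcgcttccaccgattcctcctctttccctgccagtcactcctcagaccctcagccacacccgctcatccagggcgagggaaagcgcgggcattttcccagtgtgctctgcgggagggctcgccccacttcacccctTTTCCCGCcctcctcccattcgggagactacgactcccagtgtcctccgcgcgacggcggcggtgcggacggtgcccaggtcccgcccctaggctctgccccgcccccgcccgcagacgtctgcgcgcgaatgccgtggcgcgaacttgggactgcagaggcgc

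The E2F search used TTTGGCGC, TTTCCCGC, TTTCGCGC and TTTGCCGC on both strands, and at least 1 of them lay in 3.31% of the 35116 windows in the table and in 4.62% of the 17340 windows of genes measured on the arrays. Shares over windows count each entry of a gene, whereas members are counted once. Of the 10 members 9 had an entry, and RPA3 had none. All 3 matches were TTTCCCGC, read on the opposite strand in RFC3 and PCNA, where they appear as GCGGGAAA, and on the gene's strand in LIG1. They began 55 bases before the start in RFC3, 59 in PCNA and 114 in LIG1, and those of PCNA and LIG1 overlapped a GC box. Only exact matches were counted. The windows of RFC2 and RFC4 hold GCGGGAA without the last letter of GCGGGAAA and were not counted. FEN1, among the genes with the lowest ratios below, held no match to any motif searched. The GC box GGGCGG lay in 7 of the 9 members with an entry (45.0% of all windows, 62.6% of those of measured genes) and CCAAT in 4 of 9 (RFC1, RFC5, PCNA and RPA1; 34.6% of all windows and 34.7% of those of measured genes). The CHR element TTTGAA lay in 0 of 9 (15.2% of all windows, 10.9% of those of measured genes). A match describes letters in a window and not a bound site.

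All 10 members had a lower level on the HTE array than on the DMSO array, and 3 of them, RFC3, FEN1 and LIG1, were at least 2-fold lower. Over all 23752 genes, 49% were lower by any amount and 3.03% were at least 2-fold lower. At least 1.5-fold lower were 6 of the 10 members and 10.5% of all genes. The median log2 ratio, HTE over DMSO, was -0.76 over the members (range -1.61 to -0.32) and 0 over all genes. Among the 7684 named genes whose mean level was above the 75th percentile, where all members but RFC3 and FEN1 lie, the median was -0.02 and 136 were at least 2-fold lower. Of the members in that set only LIG1 was at least 2-fold lower. Levels were scaled to each array's 75th percentile, 4020 on the DMSO array and 3570 on the HTE array. Without scaling the median over all genes was -0.16, that of the members -0.93, and 1209 genes were at least 2-fold lower against 883 higher, in place of 720 lower and 1248 higher. Relative to the median of all genes, the members' median without scaling was -0.77.

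The members were read by 14 probes, each with 1 spot on each array, and all 14 were well above background on both arrays and lower on the HTE array. The error printed after a log2 ratio is the one the scanner software gives for a spot, carried to the ratio, and it covers the spot and not the culture. Where a probe of another gene had replicate spots, their errors were combined as if independent. A smaller printed error, as for DSCC1 below, then reflects the number of spots. For comparison, replicate spots and probes of the same gene gave a typical spread of the log2 ratio, with a median SD of 0.051 over replicate spots of a probe (688 probes with at least 5 spots) and 0.16 between different probes of a gene (3759 genes). Signals below are processed fluorescence units before scaling, and they are not compared between probes.

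**Figure D1:**
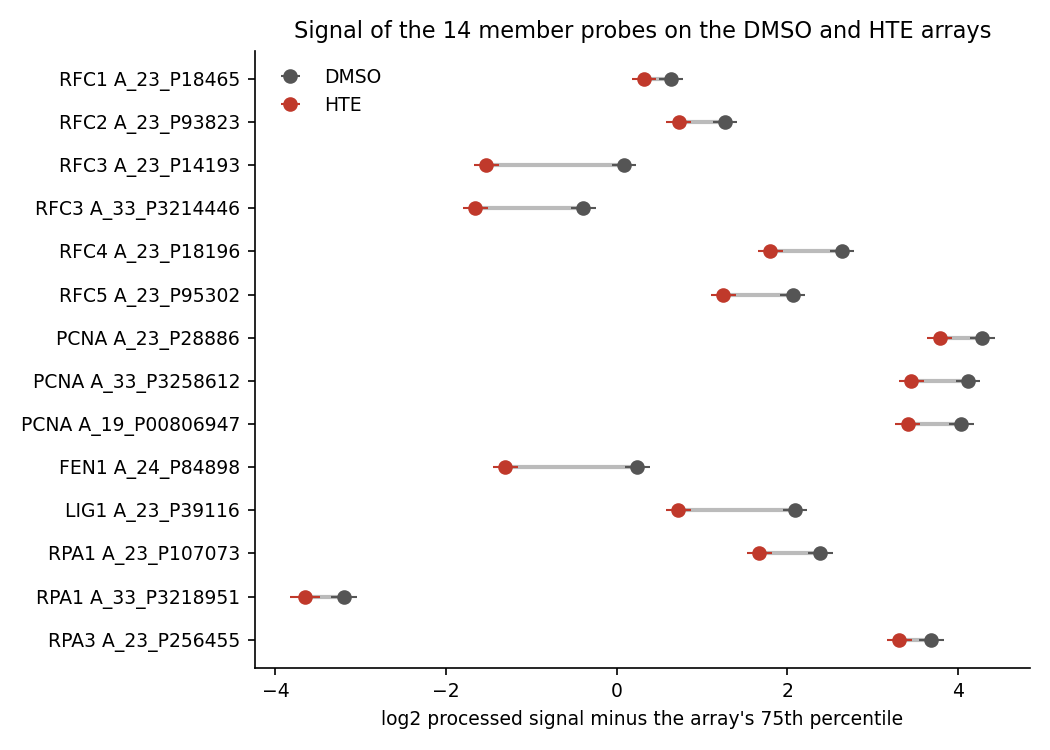
Log2 processed signal minus the array's 75th percentile of the 14 member probes on the DMSO and the HTE array, 1 point per array, with bars for the scanner software's error. On every probe the HTE point lies to the left of the DMSO point, at the lower level, and the gap is widest for RFC3, FEN1 and LIG1.

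RFC1 is the large subunit of replication factor C. Its probe A_23_P18465 read 6251 on the DMSO array and 4453 on the HTE array, a log2 ratio of -0.32 ± 0.20 and 1.25-fold lower. This was the smallest difference among the members, and 22.6% of all genes had a lower ratio.

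RFC2, RFC3, RFC4 and RFC5 are the small subunits, which also form the core of the other clamp loaders. RFC3 had the lowest ratio of the 10 genes. Its probe A_23_P14193, designed on transcript NM_002915, read 4272 under DMSO and 1239 under HTE, a log2 ratio of -1.61 ± 0.21 and 3.06-fold lower. Its other probe, A_33_P3214446, designed on NM_181558, read 3065 and 1134, a log2 ratio of -1.26 ± 0.21. Both RFC3 probes were thus past 2-fold, and 0.509% of all genes had a lower ratio than the brighter one.

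RFC4 (A_23_P18196) read 25071 under DMSO and 12432 under HTE, a log2 ratio of -0.84 ± 0.20. RFC5 (A_23_P95302) read 16781 and 8484, a log2 ratio of -0.81 ± 0.20. RFC2 (A_23_P93823) read 9705 and 5910, a log2 ratio of -0.54 ± 0.20. These 3 subunits were 1.79-fold, 1.76-fold and 1.46-fold lower and short of the 2-fold cutoff, although without scaling RFC4 passed it at -1.01. The 5 subunits work as 1 complex, and their log2 ratios spanned 1.30 from RFC3 to RFC1 with a combined software error of 0.29.

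PCNA was read by 3 probes of the same transcript. Probe A_23_P28886 read 78320 under DMSO and 49239 under HTE, a log2 ratio of -0.50 ± 0.20. Probe A_33_P3258612 read 69697 and 39129 (-0.66), and probe A_19_P00806947 read 66112 and 37957 (-0.63). The 3 probes lay within 0.16 of each other, which is inside the software error, at 1.41-fold to 1.58-fold lower. Both arrays had 0 saturated spots.

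FEN1 (A_24_P84898), the flap endonuclease, read 4762 under DMSO and 1446 under HTE. Its log2 ratio was -1.55 ± 0.21, 2.92-fold lower, and 0.615% of all genes had a lower ratio. LIG1 (A_23_P39116), the ligase that joins the pieces, read 17124 under DMSO and 5888 under HTE. Its log2 ratio was -1.37 ± 0.20, 2.58-fold lower, and 0.956% of all genes had a lower ratio. The enzymes of the last steps of lagging strand synthesis thus had lower ratios than the clamp that holds them.

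RPA1 is the large subunit of RPA and carries most of its DNA binding. Its bright probe A_23_P107073 read 21028 under DMSO and 11380 under HTE, a log2 ratio of -0.71 ± 0.20 and 1.64-fold lower. Its dim probe A_33_P3218951 read 438.5 and 284.1, a log2 ratio of -0.46 ± 0.23. The value of the bright probe, whose spot lay in row 4 of the grid, depended on the processing by the scanner software. Its median signal before that processing was 16172 under DMSO and 11268 under HTE, and the log2 ratio was -0.35 from those signals after normexp background correction and -0.89 after subtracting the median ratio of neighbouring spots. RPA3 (A_23_P256455), the small subunit, read 51748 under DMSO and 35507 under HTE, a log2 ratio of -0.37 ± 0.20. RPA1 and RPA3 stayed below 2-fold in each of these readings.

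**Figure D2:**
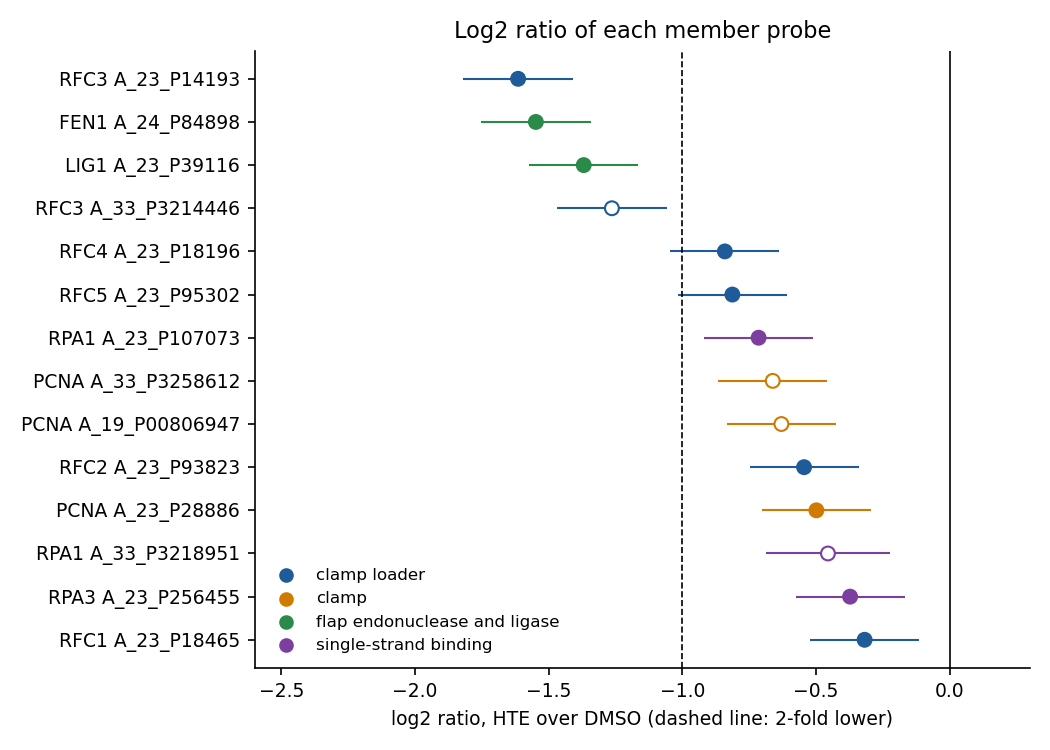
Log2 ratio, HTE over DMSO, of each member probe after scaling to the 75th percentile, with bars for the scanner software's error the 2-fold cutoff dashed, filled points for the probe that stands for its gene and open points for its other probes, and colours for the genes' roles. The probes of RFC3, FEN1 and LIG1 lie past the cutoff, from -1.61 to -1.26, and the probes of the other genes lie from -0.84 to -0.32.

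Ordered by ratio the genes ran RFC3, FEN1, LIG1, RFC4, RFC5, RPA1, RFC2, PCNA, RPA3 and RFC1. The gap between LIG1 and RFC4, 0.53, was the only one between neighbours in that order that was larger than its combined software error of 0.29. Of the 45 pairs of members 19 differed by more than 2 software errors. Each of the 19 set RFC3, FEN1 or LIG1 against a gene among the other 7. There were 21 pairs of this kind, and in the remaining pairs LIG1 differed from RFC4 by 1.83 and from RFC5 by 1.93 software errors. LIG1 was thus not set apart from RFC4 and RFC5 by more than 2 software errors. Since RFC3, FEN1 and LIG1 were singled out by these same ratios, the count is not a separate test of a split. Among the other 7 genes, 0 of 21 pairs differed by more than 2 software errors.

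Of 12 other ways of processing the arrays, 4 could not act on the members, whose probes were all well above background on both arrays and without outlier flags. The other 8 gave 66 member ratios that differed from those reported, and all 66 were below 0. RFC3, FEN1 and LIG1 were at least 2-fold lower in each of the 8. Median scaling, no scaling and spike-in scaling lower the ratio of every member by the same amount. Under these settings the signs, and the 2-fold calls of RFC3, FEN1 and LIG1, could not have changed. Scaling to the spike-in probes, which moved the median over all genes to -1.33, put all 10 members past 2-fold, although relative to that median the members' median was -0.77. The amount of spike-in RNA added per array is not given in the sources used here, so it is not known whether spike-in scaled values measure a change in these cells.

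**Figure D3:**
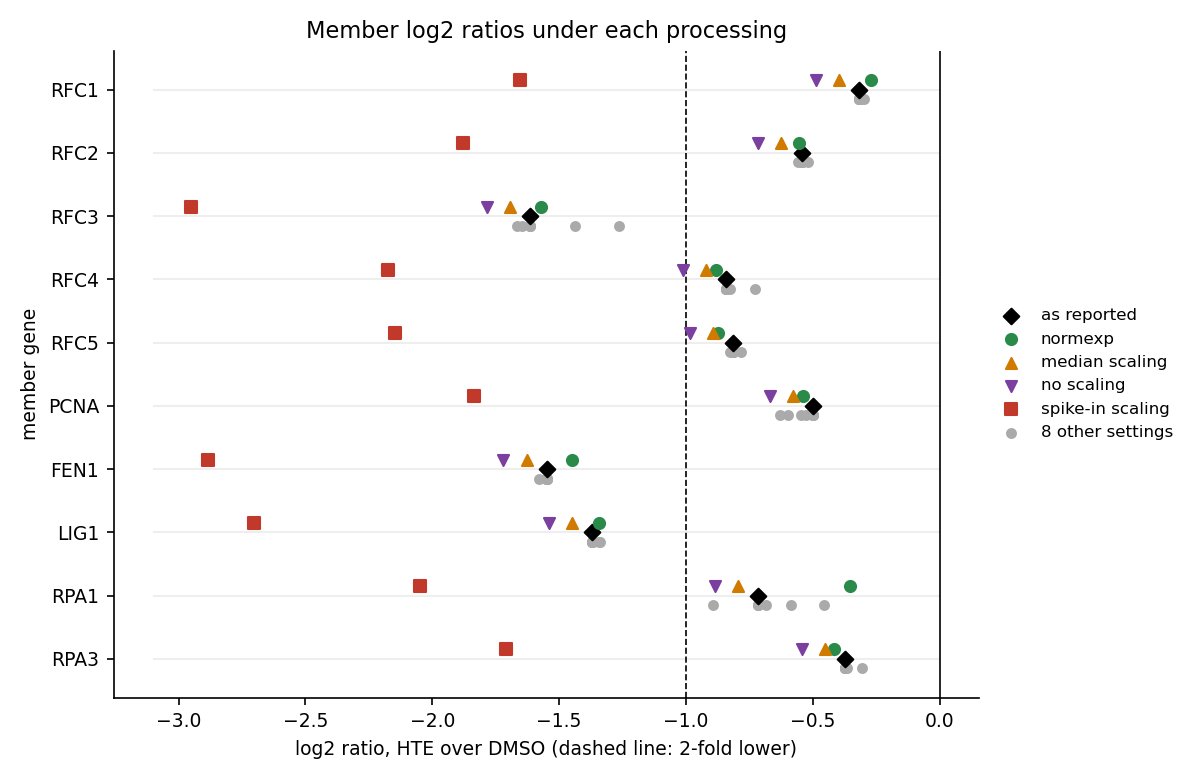
Log2 ratio, HTE over DMSO, of each member gene as reported (diamonds) and under 12 other settings, 4 of which leave every member at its reported value, with the 2-fold cutoff dashed. All points lie below 0, those of RFC3, FEN1 and LIG1 lie past the cutoff in every setting, and spike-in scaling (squares) places all 10 genes past it.

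The small RFC subunits pair with other large subunits to load PCNA or the related 9-1-1 clamp, and a list of 10 genes covers these complexes. Probes measured 9 of them, 7 were lower (49% of all genes) and 2 were at least 2-fold lower (3.03% of all genes), with a median of -0.70. That median is the value of HUS1B, a bound, and it was -0.43 with normexp background correction. The counterparts of RFC1 spanned both directions. ATAD5, which unloads PCNA, was at -1.25 ± 0.21. CHTF18, of the loader that acts in sister chromatid cohesion, was at -0.78 ± 0.20, and its partner DSCC1 was at -1.08 ± 0.07. RAD17, which loads 9-1-1 at damaged DNA, had the highest ratio of the list at 0.35 ± 0.21. RFC1, at -0.32, lay between CHTF18 and RAD17.

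Of 12 other lagging strand genes (RPA subunits and flap, RNA primer and ligation factors) 10 were lower and 2 were at least 2-fold lower, with a median of -0.38. Over all genes 49% were lower and 3.03% were at least 2-fold lower. The helicase PIF1, which lengthens flaps, was at -1.87 ± 0.21, and DNA2, the nuclease that trims long flaps, was at -1.14 ± 0.21. RPA2, the middle subunit of RPA, was at -0.33 ± 0.20, near RPA3. The other ligases did not share the value of LIG1: LIG3 was at -0.46 ± 0.21, and LIG4, which joins double-strand breaks, was highest at 0.95 ± 0.32. The LIG4 signal was dim, 101.6 under DMSO and 174.9 under HTE. Both lay below the median signal of their array (230 and 216), so its ratio is uncertain.

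Of 20 genes for proteins that bind or modify PCNA, 17 were lower and 5 were at least 2-fold lower, with a median of -0.63. These 5 were DTL (-1.44), which directs a ubiquitin ligase to PCNA-bound proteins, RAD18 (-1.31), which ubiquitinates PCNA, the histone chaperone subunit CHAF1B (-1.13), UHRF1 (-1.09), which guides maintenance methylation, and PARPBP (-1.06). CDKN1A, the kinase inhibitor p21 that also occupies PCNA, had the highest ratio at 0.83 ± 0.21. Over the 3 lists, 34 of 41 measured genes were lower, 9 were at least 2-fold lower and 0 were at least 2-fold higher. Of all genes 49% were lower and 3.03% were at least 2-fold lower. Of 13 reference genes 5 were lower and 0 passed 2-fold, with a median of 0.09 and a range from TBP at -0.49 to GAPDH at 0.43. The reference median was below 0 with quantile normalization, no scaling and spike-in scaling.

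**Figure D4:**
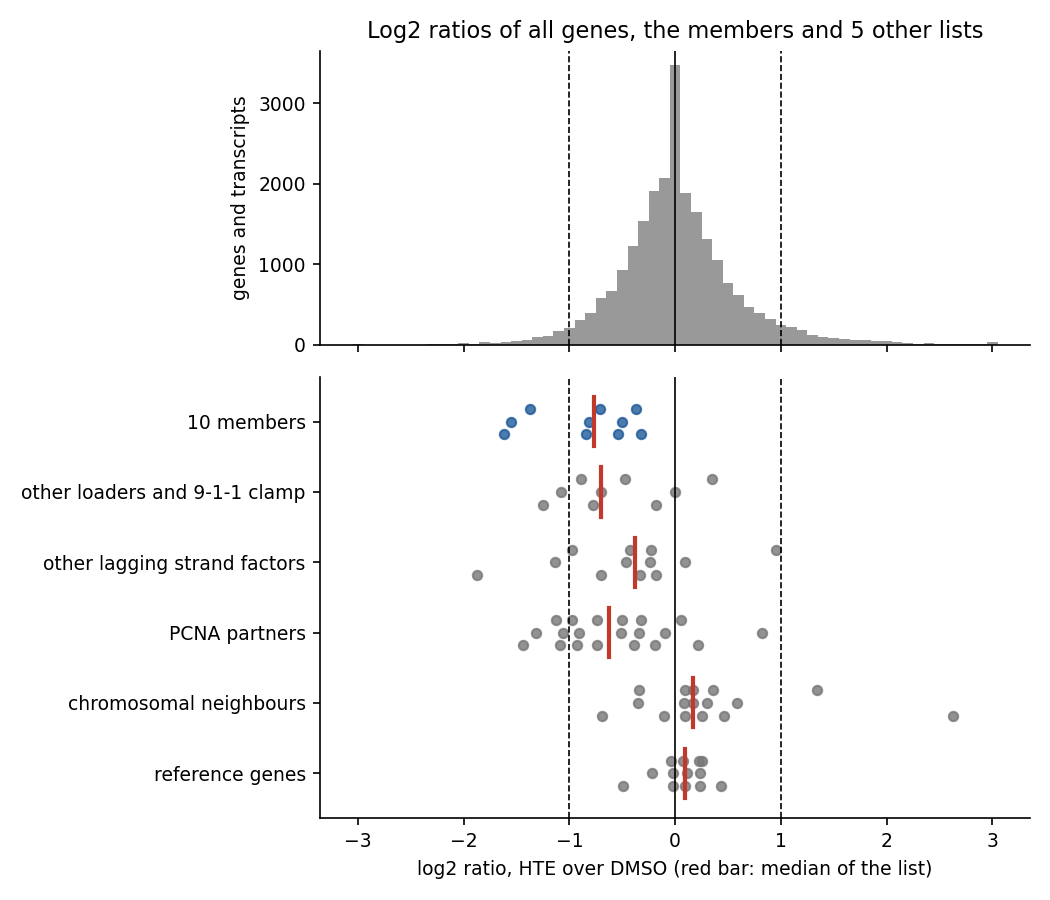
Distribution of log2 ratios, HTE over DMSO, over all 23752 genes, with values beyond 3 in either direction drawn at the ends, and below it 1 point per gene for the 10 members and 5 other lists, with red bars at the medians and the 2-fold cutoffs dashed; genes known only as a bound can stand at 0, which adds to the central peak. The 10 members all lie below 0 (median -0.76), whereas the reference genes lie on both sides of it (median 0.09).

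The protein-coding genes on either side of each member on the chromosome were read for comparison. Of these 20 genes 16 were measured, 4 were lower, 0 were at least 2-fold lower and 2 were at least 2-fold higher. Their median was 0.17 (-0.0018 without scaling). Over all 23752 genes, 49% were lower, 720 were at least 2-fold lower and 1248 at least 2-fold higher. FEN1 lies between TMEM258 (0.17) and FADS1 (0.30), a desaturase gene, and RFC3 lies between STARD13 (-0.10) and NBEA (0.36). PCNA lies between TMEM230 (0.10) and CDS2 (0.26). WSB2, which overlaps RFC5, was at 0.46. The highest were CLIP2 beside RFC2 at 1.34 and PLA2G4C beside LIG1, which was not well above background under DMSO and whose 2.63 is a lower bound. The other lower neighbours lay within the software error of their members: SMYD4 at -0.69 beside RPA1 at -0.71, KLB at -0.34 beside RFC1 at -0.32, and MIOS at -0.35 beside RPA3 at -0.37.

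**Figure D5:**
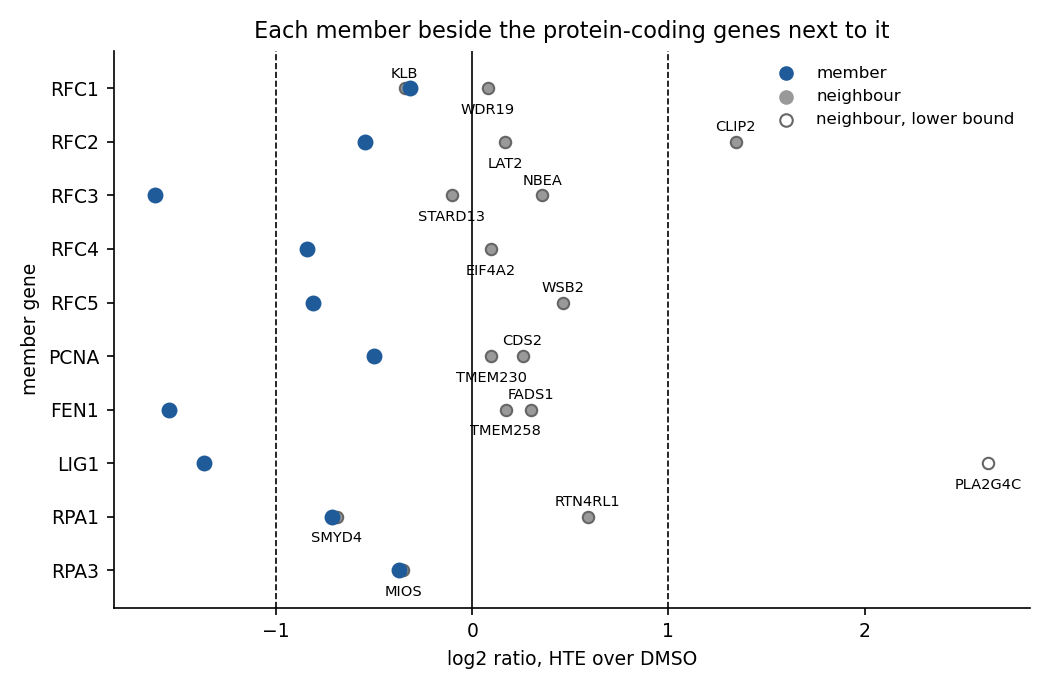
Log2 ratio, HTE over DMSO, of each member and of the measured protein-coding genes next to it on the chromosome, with an open point for a lower bound and the 2-fold cutoffs dashed. The 16 neighbours have a median of 0.17, and SMYD4, KLB and MIOS lie close to their members.

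Of 8 markers of the hepatocyte lineage, all 8 were well above background on both arrays, at 883 to 166234 under DMSO and 860 to 170316 under HTE. Of 5 markers of other cell types, 5 were well above background under DMSO and 4 under HTE (not COL3A1), at 102 to 4138 and 41.5 to 5070. None of these 5 had a signal of 0. A signal well above background therefore cannot by itself tell the lineage of the cells. Among the markers of other cell types PECAM1, an endothelial marker, had a log2 ratio of -1.82, COL1A1 -0.63, PTPRC 0.14 and CD68 0.46. The ratio of COL3A1, which was dim under HTE, is known only as a bound and stands at 0. The part of these cell type markers in the members' ratios was not tested.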

How the data were processed

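Total RNA of 1 DMSO and 1 HTE culture of HepG2 cells was labelled with 1 dye and hybridised to Agilent arrays of 62976 spots. The authors deposited the spot table of Agilent Feature Extraction for each array, and the intensity used is its processed signal, which is background-subtracted and spatially detrended by that software but not scaled between arrays (version 11.5.1.1 in the file headers and 10.7 in the submitters' processing notes; design on hg19). Here log2 intensity was scaled by subtracting each array's 75th percentile over the 58717 non-control spots, outlier spots (440 on the DMSO and 459 on the HTE array) were left out, and replicate spots were averaged. A probe was kept where a share of 0.5 or more of its spots passed the software's test for signal well above background on either array (35591 spots, 60.6%, under DMSO and 33249, 56.6%, under HTE). A probe dim on 1 array gives a bound, as for 2752 of the 23752 genes. Of 50599 probes 28174 were named through their RefSeq transcript, and the brightest probe stands for a gene in counts and medians. With 1 array per group the number of arrays limits the precision, and no test was run. A gene was called where its log2 ratio reached 1 or -1.

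The members and lists were chosen with earlier results of these data known. The text names all members and, of each list, the lowest, the highest and any gene at least 2-fold away; other genes named (the remaining neighbours, markers, RPA2, LIG3 and CHTF18) were chosen after their values were seen. Promoter windows and neighbours come from RefSeq tables on GRCh38.p14. Alternatives were normexp (offset 50) on the median signal, since the tables used hold no mean signal, quantile, median, spike-in and no scaling, other filters, bounds and probe choices, and subtraction of the neighbouring spots' median ratio. The scripts were tested on simulated data made from the DMSO array with its flags copied. That simulation held no bounds and no difference in scale between arrays, so it did not test these steps. Python 3.11.15, numpy 2.4.6, pandas 2.3.3, R 4.3.3 and limma 3.58.1 were used.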

Additional observations from a re-analysis of the deposited data

How the results depend on the processing

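The median log2 ratio of the 10 members was -0.84 with median scaling, -0.93 without scaling, -2.10 with spike-in scaling and -0.70 when a gene's probes were averaged, against -0.76 as reported. The number of members at least 2-fold lower was 3 as reported and 10 with spike-in scaling, and 6 and 1 members passed cutoffs of 1.5-fold and 3-fold. Of the 41 measured genes of the 3 pathway lists 9 were at least 2-fold lower as reported, 14 without scaling and 38 with spike-in scaling. At cutoffs of 1.5-fold and 3-fold, 19 and 1 of them passed. Over all 23752 genes, 10.5% were at least 1.5-fold lower and 129 genes were at least 3-fold lower. Spike-in scaling moved the median over all genes by -1.33 and no scaling by -0.16. Of 120 recomputed member ratios 54 were identical to the reported ones because the setting could not act on those probes. Of the other 66, 0 changed sign. A total of 24 differed from the reported value by less than the median SD of replicate spots, 0.051, and 42 moved further. The ratios under median, no and spike-in scaling could not have changed sign, since these settings lower every member by the same amount. RFC1 was at -0.49 without scaling. Over all genes the counts at least 2-fold lower and higher were 720 and 1248 as reported, 468 and 825 with normexp, 1209 and 883 without scaling, 17972 and 121 with spike-in scaling, 1320 and 1341 with dim probes at their measured value, and 1270 and 2297 with no filter on 41127 genes. The cause of these shifts was not tested. No paired analysis was possible because each treatment had a single array.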

Other observations

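The antisense transcript PCNA-AS1 has a probe of its own (A_21_P0000561), chosen here after its value was seen. It read 22268 on the DMSO array and 8641 on the HTE array, a log2 ratio of -1.19 ± 0.20 from 1 spot per array, whereas the 3 PCNA probes lay at -0.50, -0.66 and -0.63.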
